A study of Drosophila melanogaster with 2 samples.

Results

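Seminal fluid proteins of Drosophila melanogaster are secreted mainly by the paired male accessory glands, with further products of the ejaculatory duct and bulb, and pass to the female with sperm at mating. They act on egg laying, remating, sperm storage and the mating plug, and the best known of them, the sex peptide, acts through a receptor in the female. Most are short secreted peptides or proteins, among them protease inhibitors, lectins and peptide hormones.

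The genes described here are the protein-coding genes of the Ensembl annotation whose symbol begins with Acp or Sfp and a digit, together with SP and Dup99B. They number 49 of 13986 protein-coding genes. There are 19 Acp genes, 28 Sfp genes, SP, which encodes the sex peptide, and Dup99B, a related peptide of the ejaculatory duct. The symbol rule also took 2 genes that are not seminal fluid genes. Acp1 and Acp65Aa are annotated by RefSeq as adult cuticle proteins, and without them 47 genes remain.

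The data were peak lists from chromatin immunoprecipitation with sequencing (ChIP-seq), a method that maps where a protein sits on DNA. Whole adult males, of unknown age, came from a line that stably expresses CG7045, also called tHMG1, with GFP at its C-terminus, and chromatin fragmented by sonication was precipitated with anti-GFP antibody. CG7045 encodes the testis HMG-box protein tHMG1. The 2 biological replicates, numbered 1 and 3, formed 1 group of the same genotype without treatment, so no contrast between groups was possible, and the share of chromatin that came from accessory gland cells is not known. The list that passed the irreproducible discovery rate procedure (the IDR list) held 4574 peaks with signals from 90.3 to 2863.8, and the pooled list held 30000 peaks, background included, with signals from 18.6. Signal is the value the authors' list gives each peak, taken here as an enrichment, since the peak caller is not named. Read depth was unknown, and coordinates are those of dm6.

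Peaks were rare at the promoters of the seminal fluid genes. A summit of the IDR list lay within 500 bp of a transcription start site (TSS) of 1 of the 49 genes, Sfp26Ad, or 2.04%, against 21.5% of the 13937 other protein-coding genes. In the pooled list, 5 of the 49 had a summit that near, or 10.2%, against 55.9% of the others. These 5 were Acp63F, Acp53Ea, Sfp77F, Sfp33A3 and Sfp26Ad, and only Sfp26Ad had a signal above the lowest of the IDR list. Each list was made from both replicates, and the strongest 4574 peaks of either replicate alone gave the same single gene, with the Sfp26Ad summit 341 bp away in replicate 1 and 343 bp away in replicate 3. Removing the 2 cuticle protein genes changed neither count.

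The size of the gap depended on the window. No seminal fluid gene had an IDR summit within 250 bp, against 17.5% of the others. Within 1000 bp there were 2 genes (4.08%, against 24.7%), and within 2000 bp 6 genes (12.2%, against 29.7%). In the pooled list 4 genes had a summit within 250 bp (8.16%, against 47.8%), 12 within 1000 bp (24.5%, against 62.0%) and 19 within 2000 bp (38.8%, against 70.1%). Genes with several TSSs have more chances of a nearby summit, and 91.8% of the seminal fluid genes had a single annotated TSS, against 73.5% of the others. Among the 10241 other genes with a single TSS, a set chosen after the data were seen, 16.4% had an IDR summit within 500 bp and 47.2% a pooled summit. Members of a cluster share their nearest peaks, so the 49 genes are not 49 independent observations. Their nearest peaks were 37 different IDR peaks and 39 different pooled peaks.

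**Figure D1:**
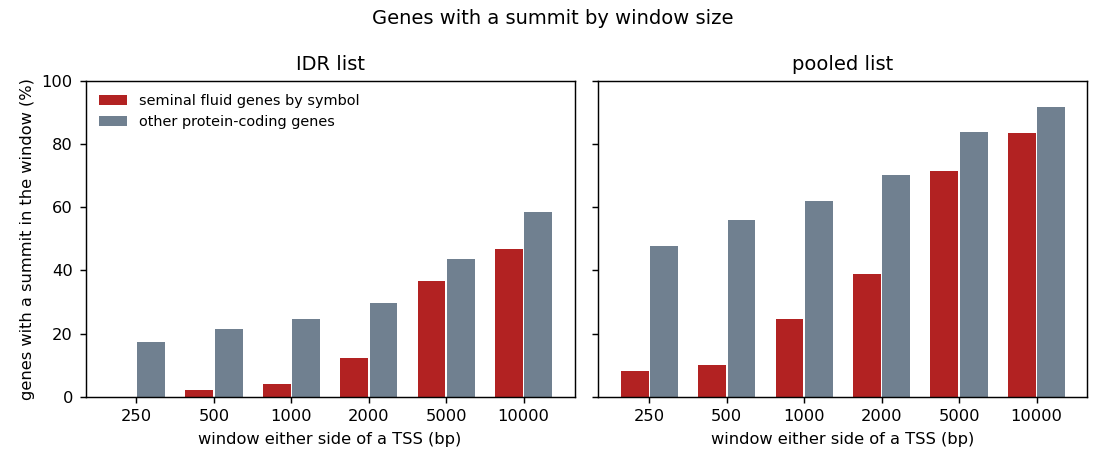
Share of genes (%) with a summit inside a window around a TSS, for the 49 seminal fluid genes by symbol (red) and the 13937 other protein-coding genes (grey), in the IDR list and the pooled list. The red bar is the lower of each pair, and at 500 bp it stands at 2.04% against 21.5% in the IDR list and at 10.2% against 55.9% in the pooled list.

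Distances gave the same picture. The median distance from a seminal fluid TSS to the nearest IDR summit was 10873 bp, against 6718 bp for the 13896 other protein-coding genes on chromosome arms with peaks. To the nearest pooled summit the medians were 2901 bp and 288 bp. In the IDR list the lower quartiles were 4115 bp for the seminal fluid genes and 1043 bp for the others, and the upper quartiles were 17511 bp for the seminal fluid genes and 20635 bp for the others, so the order turned round. Beyond 500 bp the medians were close. Among genes with no IDR summit within 500 bp, the medians were 11165 bp for the 48 seminal fluid genes and 10912 bp for 10901 others. Among genes with no pooled summit that near, they were 3291 bp for 44 seminal fluid genes and 3349 bp for 6105 others. These last values describe genes selected on the same distances and were not tested. The other genes include those on X and chromosome 4, which hold none of the seminal fluid genes. The quartiles and the medians beyond 500 bp were not repeated by arm.

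**Figure D2:**
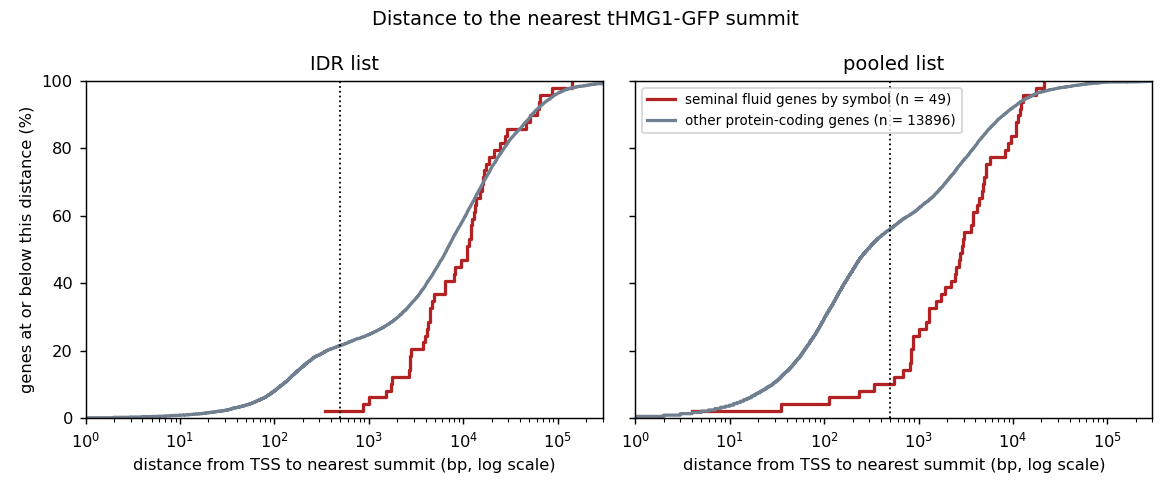
Cumulative share of genes (%) by distance from a TSS to the nearest summit (bp, log scale), for the 49 seminal fluid genes (red) and 13896 other protein-coding genes (grey), in the IDR list and the pooled list. The dotted line marks 500 bp. The red curve lacks the early rise of the grey one, and in the IDR list the curves meet beyond the medians of 10873 and 6718 bp.

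Over all arms together, the surroundings of these genes were not poor in peaks. The other genes include those on X and chromosome 4, where no seminal fluid gene lay. Their median IDR distances there were 11893 and 29830 bp, and the counts below were not repeated by arm. Within 50 kb either side of the TSS the median number of summits was 5 for the seminal fluid genes and 5 for the others in the IDR list, and 27 and 29 in the pooled list. In the IDR list 6 of the 49 genes (12.2%) had no summit in that range, against 11.1% of the others. The next TSS of another gene lay at a median of 796 bp from a seminal fluid TSS and 1089 bp from that of another protein-coding gene.

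The nearest peaks mostly belonged to neighbours. For 48 of the 49 genes the nearest IDR summit lay nearer to another gene's TSS, against 80.1% of the other genes. For the pooled list the count was 44, against 43.4%. These counts largely repeat the promoter counts, since a gene without a summit near its TSS mostly has its nearest summit by another gene. Among the others, 11135 genes had a neighbour's IDR summit as the nearest and 10901 had none within 500 bp. For the pooled list these numbers were 6033 and 6105. The neighbour's TSS was within 500 bp of the summit for 31 of those 48 genes. For the other genes this was not counted, so no background stands beside it. Counted once each, 26 of the 37 nearest IDR peaks (70.3%) lay within 500 bp of some gene's TSS, against 57.9% of all 4574 IDR peaks. The 37 were selected for being nearest to a TSS, which the 4574 were not. The nearest IDR peaks of the other genes, a closer comparison, were not counted in this way. All 49 nearest IDR summits lay inside a peak of each replicate's own list, with signals from 29.1 to 231 in replicate 1 and from 25.9 to 209.6 in replicate 3. The Sfp84E peak, with a signal of 91.3, ranked 4507 in both the IDR and the pooled list. Down to that signal, the IDR list therefore held the strongest peaks of the pooled list. They were selected on the reads of both replicates, so this count was largely fixed in advance. None of the 49 genes had an IDR summit inside its own span, against 12.8% of the others, and 3 had a pooled one (6.12%, against 40.7%). The spans differ, with a median of 515 bp for the seminal fluid genes and 2169 bp for the others.

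Sequence is shown for 4 of the 5 genes with a pooled summit within 500 bp, all but Acp53Ea, whose sequence is not shown here. The Sfp26Ad summit, 341 bp upstream, and the Sfp33A3 summit, 232 bp downstream, lay outside the bases printed for these genes. That of Sfp26Ad has a sequence of its own further on. Each run is 300 bases of dm6, from 250 before the TSS to 50 from it, on the strand of the gene, and capitals mark matches to 5 short motifs on either strand. These were TATAAA of the TATA box, GAGAG of the GAGA factor site, ATCGAT of the DRE element, CACACA of the CA repeat and AACAAT, which is the core of the SRY-type HMG-box site. The regions are chr3L:3816305-3816604 (minus strand) for Acp63F, chr3L:20897368-20897667 (minus) for Sfp77F, chr2L:11839662-11839961 (plus) for Sfp33A3 and chr2L:5943255-5943554 (minus) for Sfp26Ad.
Acp63F: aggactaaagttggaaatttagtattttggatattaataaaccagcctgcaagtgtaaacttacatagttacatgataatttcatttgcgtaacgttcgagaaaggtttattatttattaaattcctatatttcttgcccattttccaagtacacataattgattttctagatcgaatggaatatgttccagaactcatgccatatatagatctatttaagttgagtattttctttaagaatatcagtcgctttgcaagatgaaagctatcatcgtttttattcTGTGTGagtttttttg
Sfp77F: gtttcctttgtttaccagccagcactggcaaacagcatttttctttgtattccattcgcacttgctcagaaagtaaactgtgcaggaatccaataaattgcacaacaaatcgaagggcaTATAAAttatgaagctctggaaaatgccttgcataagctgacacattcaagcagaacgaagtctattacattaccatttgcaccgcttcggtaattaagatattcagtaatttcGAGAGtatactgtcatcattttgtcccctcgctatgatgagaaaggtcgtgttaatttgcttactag
Sfp33A3: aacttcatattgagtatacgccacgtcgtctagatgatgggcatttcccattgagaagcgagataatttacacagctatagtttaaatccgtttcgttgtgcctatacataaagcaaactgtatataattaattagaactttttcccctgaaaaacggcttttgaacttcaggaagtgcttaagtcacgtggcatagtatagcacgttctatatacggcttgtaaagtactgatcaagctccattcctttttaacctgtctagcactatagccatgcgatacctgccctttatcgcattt
Sfp26Ad: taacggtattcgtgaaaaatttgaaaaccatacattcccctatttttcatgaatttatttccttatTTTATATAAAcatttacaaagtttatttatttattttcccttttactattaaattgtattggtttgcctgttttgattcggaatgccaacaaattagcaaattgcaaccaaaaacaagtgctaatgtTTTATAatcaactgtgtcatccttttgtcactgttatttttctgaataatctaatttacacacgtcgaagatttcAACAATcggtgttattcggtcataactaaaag

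Sfp26Ad, at chr2L:5942623-5943304, was the only gene with an IDR summit at its promoter. The pooled signal of the peak was 310.5. It was 175.9 for replicate 1 alone and 126.4 for replicate 3 alone. Its summit lay 341 bp upstream of the TSS of Sfp26Ad and 2 bp from that of Gpdh1, a glycerol-3-phosphate dehydrogenase gene transcribed the other way, in the 5' UTR of Gpdh1. The start sites of the 2 genes were 339 bp apart. The 91 bases from 75 before this summit to 15 after it, at chr2L:5943570-5943660 on the plus strand, the strand of Gpdh1, are shown because no other promoter of the group had a peak of this strength. Capitals mark the 11 bases centred on the summit.
Summit between Sfp26Ad and Gpdh1: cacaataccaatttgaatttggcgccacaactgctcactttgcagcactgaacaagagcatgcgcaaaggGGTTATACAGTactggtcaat

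Acp63F, at chr3L:3815839-3816354 within the span of Scsalpha1, a succinyl-CoA synthetase gene, had the nearest pooled summit, 4 bp upstream of its TSS. That peak ranked 17269 of 30000 in the pooled list, where its signal was 30.7. Replicate 1 gave it 13.5 and replicate 3 gave it 14.0. A second, stronger peak (95.7 pooled, 34.6 in replicate 1, 61.2 in replicate 3) passed the IDR procedure 858 bp upstream. No gene had its TSS nearer to that summit, and this held for none of the other 48 genes and their nearest IDR summits. Its promoter, printed above, held a CACACA match on the opposite strand, starting 34 bp after the TSS, and none of the other motifs.

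The other 3 promoter peaks ranked from 21654 to 26939 of 30000 in the pooled list, which includes background. Their deposited −log10 q values, higher for a firmer call, were 0.49 for Sfp77F, 0.4 for Acp53Ea and 0.27 for Sfp33A3. The Acp63F peak had 0.81, against 4.08 for the Sfp26Ad peak. Every IDR peak nearest to a seminal fluid gene had the same 4.08, at signals from 91.3 to 427.6, so this value does not rank them. Acp53Ea, at chr2R:16749803-16750335, had a summit 35 bp downstream of its TSS, in its 5' UTR, with a signal of 23.4. The peak was found in replicate 3 at 12.5, and no replicate 1 peak covered the summit. Sfp77F, at chr3L:20896268-20897417, had a summit 114 bp upstream at signal 25.2 (16.9 for replicate 1, 12.3 for replicate 3), and this lay nearer to the TSS of CG43931, 26 bp away. Sfp33A3, at chr2L:11839912-11840329, had a summit 232 bp downstream, in its coding exon, at signal 20.6 (12.0 for replicate 1, 17.4 for replicate 3). Just outside the window, Acp54A1 had a summit at 549 bp with a signal of 86.0, nearer to the TSS of CG11400, and Acp62F, which encodes a protease inhibitor, had its own at 688 bp with a signal of 19.9.

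**Figure D3:**
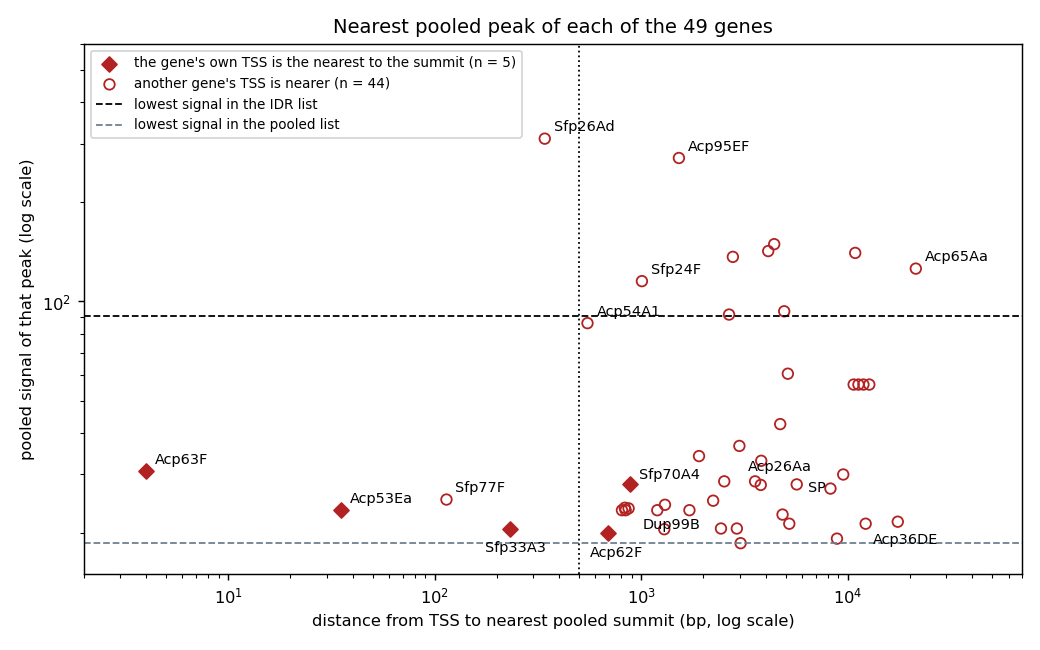
Pooled signal (log scale) of the nearest pooled peak against its distance from the TSS (bp, log scale), 1 point for each of the 49 genes. Filled diamonds mark the 5 genes whose own TSS was the nearest to the summit, with signals from 19.9 to 30.7, all below the lowest IDR signal of 90.3 (black dashed line). The grey dashed line is the lowest pooled signal, 18.6, and the dotted line marks 500 bp.

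The replicates' own lists of 30000 peaks differed in which weak promoter peaks they held. In replicate 1, 7 of the 49 genes had a summit within 500 bp, against 55.4% of the other genes, and in replicate 3, 8 had, against 54.1%. The genes in both were 4, Acp63F, Sfp26Ad, Sfp33A3 and Sfp77F, against 47.0% of the other genes. Of the calls in replicate 1, 57.1% recurred in replicate 3, and 50% the other way. Among the other genes these shares were 84.9% and 86.9%. Found in replicate 1 but not in replicate 3 were Acp95EF, Sfp24F and Acp98AB, with signals from 11.7 to 14.5. Found in replicate 3 but not in replicate 1 were Sfp87B, Sfp79B, Acp53C14a and Acp53Ea, with signals from 11.4 to 13.8. The lowest signal was 10.8 in the list of replicate 1 and 11.0 in that of replicate 3, and these peaks ranked from 22095 to 27672 of 30000 in replicate 1 and from 22324 to 28377 in replicate 3.

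SP, Dup99B, Acp26Aa, Acp26Ab, Acp36DE, Acp29AB and Acp76A, described next for their known products, had no summit within 500 bp in the IDR or the pooled list. SP, at chr3L:13301635-13301922, had its nearest IDR summit 64836 bp upstream in an intron of caps, and its signal was 285.8 (163.5 for replicate 1, 122.6 for replicate 3). Its nearest pooled summit was 5655 bp away, with a signal of 28.0, and lay nearer to Sfp70A4. Dup99B, at chr3R:29715068-29715377, had an IDR summit 1735 bp upstream at signal 93.8 (33.6 for replicate 1, 61.1 for replicate 3), at 216 bp from the TSS of the odorant binding protein gene Obp99b. A pooled summit 832 bp upstream had a signal of 23.8. Both peptides were therefore without a summit at 500 bp, but their surroundings differed.

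Acp26Aa encodes ovulin, which stimulates ovulation, and lies 1034 bp from Acp26Ab. They shared an IDR peak with a signal of 128.0 (79.6 for replicate 1, 44.0 for replicate 3), 3764 bp downstream of the first TSS and 2730 bp downstream of the second. Acp36DE, a glycoprotein needed for sperm storage, lay within Fas3 and had its nearest IDR summit 29236 bp away with a signal of 93.8, and its nearest pooled summit at 12192 bp. For Acp29AB, a lectin with a role in sperm storage, these distances were 8004 and 2984 bp, and for the serpin Acp76A 6419 and 3026 bp.

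After Sfp26Ad and Acp63F, the genes nearest to an IDR summit were Sfp24F (1007 bp, signal 115.2), Acp95EF (1521 bp, 271.4), Dup99B, Sfp33A3 (1780 bp, 94.3), Sfp84E (2660 bp, 91.3), Acp26Ab, Acp54A1 (2752 bp, 106.0) and Sfp24C1 (2775 bp, 136.4). Each of these summits was nearer to another gene, such as mask at 66 bp for the Acp95EF peak and CD98hc, an amino acid transporter subunit gene, at 107 bp for the Sfp84E peak. The farthest were Sfp60F at 140567 bp, Sfp65A at 87392 bp, SP, Acp33A at 63318 bp and Sfp70A4 at 60061 bp. The IDR peaks nearest to these 5 had signals from 123.9 to 287.9, and the Sfp65A peak lay 190 bp from the TSS of Ldh, the lactate dehydrogenase gene. Of the cuticle protein genes, Acp1 was 15011 bp and Acp65Aa 21326 bp from an IDR summit.

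Some of these genes stand next to each other. Another of the 49 lay within 10 kb of 19 of them, and joining start sites at most 50 kb apart gave 5 clusters with 20 genes. The rest, which are the majority, had no other gene of the group within 50 kb. The same count was not made for other sets of genes. On 2L, Sfp24Ba, Sfp24Bd, Sfp24Bb, Sfp24Bc, Acp24A4 and Sfp24C1 spanned 32124 bp with no IDR summit between the outer TSSs and 4 pooled ones, the strongest with a signal of 35.8. The 4 Sfp24B genes lie within Drgx and had their nearest pooled summit, with a signal of 56.1, from 10668 to 12698 bp away near the protein kinase gene for. On 2R, Sfp53D, the 3 Acp53C14 genes and Acp53Ea spanned 6382 bp with no IDR summit and 2 pooled ones, and the nearest IDR summit to all of them, with a signal of 106.2, was at Pgant9. Sfp33A4, Sfp33A2 and Sfp33A3 spanned 2670 bp within Pde1c without a summit of either list between their TSSs, and no summit lay between Sfp70A4 and SP, 4775 bp apart on 3L. The first of these spans ends at the Sfp33A3 TSS, and a pooled summit lay 232 bp beyond it. The group of Sfp26Ac, Acp26Ab, Acp26Aa and Sfp26Ad on 2L spanned 58531 bp and held 2 IDR summits, the stronger at 128.0. Summits in spans of equal length elsewhere were not counted, so no background stands beside these cluster counts.

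**Figure D4:**
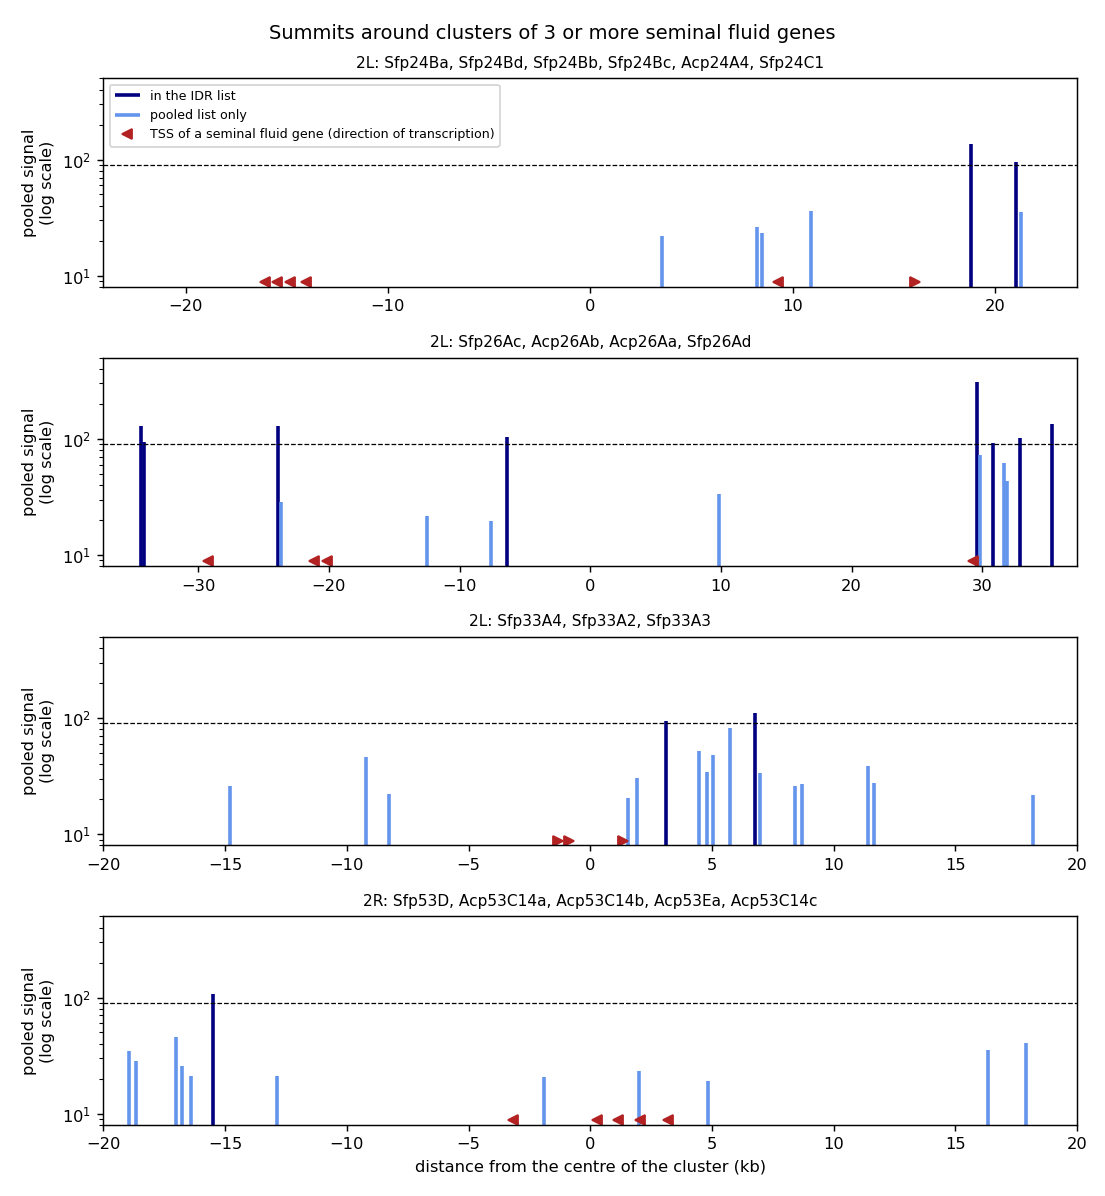
Summits around the 4 clusters of 3 or more seminal fluid genes, as pooled signal (log scale) against distance from the centre of the cluster (kb). Dark lines are peaks of the IDR list, light lines peaks of the pooled list alone, and red triangles the TSSs with their direction of transcription. The dashed line is the lowest IDR signal, 90.3, and the Sfp26Ad start site stands beside the tallest line, the 310.5 peak at Gpdh1.

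The group was uneven over the genome. Of the 49 genes, 24 (49.0%) lay on 2L, against 18.9% of the other protein-coding genes. Clusters of 6, 4 and 3 of the genes lie on that arm. There were 8 (16.3%, against 20.4%) on 2R, 10 (20.4%, against 19.6%) on 3L and 7 (14.3%, against 24.5%) on 3R. None lay on X or chromosome 4, which held 15.8% and 0.574% of the others. Within each of the 4 arms the median pooled distance of the seminal fluid genes exceeded that of the other genes: 4093 and 333 bp on 2L, 1032 and 251 bp on 2R, 1765 and 311 bp on 3L, and 3807 and 267 bp on 3R. The median IDR distance was also longer on each, at 8774 and 6713 bp on 2L and 16201 and 6410.5 bp on 2R. On 3L it was 9827 and 6196 bp, and on 3R 12045 and 5256.5 bp. By name, the Acp genes had a median pooled distance of 2521 bp and the Sfp genes 3508 bp, with 2 and 3 genes within 500 bp.

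The genes also differed from the others in the medians or shares of several features of structure and sequence, though not every gene had them. The longest protein of each gene had a median of 99 residues, against 392 for the other genes, 28.6% of the genes had a single exon, against 15.3%, and 30.6% lay within the span of another gene, against 14.0%. Promoters, taken as 250 bp before to 50 bp after the outermost TSS, had a median GC content of 32.7% (22.3% to 57.0%), against 38.0%. TATAAA on either strand occurred in 32 of 49 promoters (65.3%), against 45.8% of the 13945 promoters of all protein-coding genes on these arms. On the gene's strand and from 40 to 20 bp before the TSS, where a TATA box stands, it occurred in 13 (26.5%), against 7.73%. GAGAG occurred in 14.3% against 29.7%, and ATCGAT in 8.16% against 23.3%. CACACA (22.4% against 19.2%) and AACAAT (30.6% against 32.1%) occurred at shares near those of all promoters. ATCGAT is its own reverse complement, the motifs do not contain one another, and a match is not a measured site.

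Genes of the same biology outside the symbol rule were read in 3 lists, beside the 21.5% (IDR) and 55.9% (pooled) of all protein-coding genes outside the symbol rule with a summit within 500 bp. Of 12 genes that act with the sex peptide, 1 had an IDR summit within 500 bp, hdly at 28 bp with a signal of 279.2. In the pooled list 6 had, which is near the share of all other genes. These were hdly, SPR (267 bp, signal 25.2), antr (54 bp, 23.2), Esp (10 bp, 23.3), frma (84 bp, 19.1) and lectin-46Cb (391 bp, 22.1). Apart from hdly, their peaks had −log10 q values from 0.21 to 0.49. No replicate 1 peak covered the Esp summit, and no replicate 3 peak covered those of frma and lectin-46Cb. SPR encodes the sex peptide receptor. Of 4 regulators linked to the accessory gland, dsx, a sex determination factor, had an IDR summit at 54 bp with a signal of 98.6. In the pooled list dve (29 bp, signal 71.1) and the Hox gene Abd-B (149 bp, 29.1) joined it, and the paired gene prd did not, at 2496 bp. Of 10 other products of the gland, duct and bulb none had an IDR summit within 500 bp (21.5% of the genes outside the rule did) and 2 had a pooled one (55.9% did), Gld, a glucose dehydrogenase, at 12 bp (signal 35.8) and EbpIII at 140 bp (34.4). No replicate 1 peak covered the Gld or the EbpIII summit, though replicate 1 had a summit of its own 81 bp from an EbpIII TSS. Mst57Da, Mst57Db and Mst57Dc, which encode accessory gland peptides, were from 8324 to 10525 bp from a pooled summit.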

How the data were processed

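ChIP-seq of GFP-tagged tHMG1 from whole adult males was read from 4 dm6 peak lists: 1 per replicate, 1 pooled and 1 that passed IDR. Per the file headers, that is the text listings beside the lists, each derived from the replicates' alignments and a control alignment. Neither header nor label names an aligner, a peak caller or an IDR threshold. The signal of each peak is used as the authors deposited it, is not scaled between lists, and served to rank peaks within a list. The deposited −log10 q values were printed for the pooled promoter peaks and not used otherwise. The dm3 lists were not analysed here.

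Genes and every TSS came from Ensembl release 115 without transposable elements, and sequence from the RefSeq release 6 assembly. All 4574 IDR rows were found in the pooled list, and the last pooled peak lay within the length of each of 6 arms. A summit is the start plus its offset, written 1-based. A distance is that of the nearest summit to any TSS of a gene. Genes on sequences without peaks counted as having no summit near them and were left out of medians. A replicate's signal at a summit is that of its peak covering the summit. Depth is unknown, so no counting interval is given.

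No test was made: there is 1 group, and counts and medians stand beside those of all other protein-coding genes. The nearest-summit search was tested on simulated data. Python 3.11.15, numpy 2.4.6, pandas 2.3.3 and matplotlib 3.10.9 were used. Members, lists and motifs were chosen with earlier results of these data known. Named are genes with a pooled summit within 500 bp, the 10 nearest to and 5 farthest from an IDR summit, the best known products, cuticle protein genes, and genes within 10 kb of another of the group. Other genes are named for being nearest to a named summit, for holding a named gene, or from the 3 lists, and Sfp87B, Sfp79B, Acp98AB, Acp29AB and Acp76A were added after their values were seen. Alternatives were other windows, 1 TSS per gene, the stronger 50% of each list, each replicate alone, peak edges, and the cuticle genes left out.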

Additional observations from a re-analysis of the deposited data

How the results depend on the processing

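For the IDR list, the count of 1 seminal fluid gene held with 1 TSS per gene, the stronger 50% of peaks, each replicate alone, intervals in place of summits and the cuticle genes left out. It was 0 with a 250 bp window, 2 with 1000 bp and 6 with 2000 bp, and 0 where a summit counted only for the gene with the nearest TSS. The median distance was 22505 bp with the stronger 50% and 10868 to 12291 bp leaving out a replicate. For the other genes the count of 2995 was 2436 with 250 bp, 3439 with 1000 bp and 4137 with 2000 bp. It was 1790 with the stronger 50%, 2898 to 3035 leaving out a replicate and 1679 among those with a single TSS. Counting only the nearest TSS was not done for the other genes. Their median was 6993.5 bp with 1 TSS per gene, 13816.5 bp with the stronger 50% and 8073 bp with a single TSS.

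For the pooled list, the count of 5 was 12 with 1000 bp, 19 with 2000 bp, 1 with the stronger 50%, 3 counting only the nearest TSS, and 7 to 8 leaving out a replicate. The median was 5122 bp with the stronger 50% and 2138 to 2859 bp leaving out a replicate. For the other genes, the count of 7791 was 8639 with 1000 bp, 9774 with 2000 bp and 6091 with the stronger 50%. It was 7541 to 7718 leaving out a replicate and 4835 with a single TSS, and it was not made counting only the nearest TSS. Their median of 288 bp was 374 bp with 1 TSS per gene, 1176 bp with the stronger 50% and 308 to 353 bp leaving out a replicate. It was 83 bp to the peak edge and 639 bp with a single TSS. In the settings run on both groups of genes, the seminal fluid genes had the longer median. The cause of these shifts was not tested beyond what each setting removes. Depth is unknown, and 4 of the 5 pooled promoter peaks had signals under the lowest of the IDR list. No paired analysis was possible because the 2 replicates form 1 group.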
